A study of Mus musculus with 4 samples.

Results

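The activation keratins Krt6a, Krt6b, Krt16 and Krt17 were followed through single cells of mouse back skin. They are 4 of the 27998 genes in the deposited count table, taken by their symbols, and all 4 were found. Droplet 3′ single-cell RNA sequencing had been run in 4 libraries, 1 for each group: Ovol1 null skin treated with imiquimod, Ovol1 null skin left untreated, control skin treated with imiquimod, and control skin left untreated. The animals were CD1 mice of 7 to 8 weeks, imiquimod had been given as one dose of 62.5 mg of a 5% cream on shaved back skin, and the cells had been sorted by FACS. The groups are called here by their labels, Ovol1_null_IMQ, Ovol1_null_Untreated, Control_IMQ and Control_Untreated. The sources used here do not give how many mice went into a library or which part of Ovol1 had been removed. The study's title names a role of Ovol1, a zinc-finger repressor of epidermis, in psoriasis-like inflammation and thickening of the epidermis.

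Keratins build intermediate filaments as pairs of a type II and a type I chain. Krt6a and Krt6b are type II chains, and Krt16 and Krt17 are type I partners. In resting skin these genes are known mainly from the hair follicle, where Krt17 runs through the outer root sheath and Krt6a marks the companion and inner bulge layers. In the epidermis between follicles they are known to be switched on by wounding, hyperproliferation and psoriasis, in place of part of the usual Krt1 and Krt10. Mutations in the human counterparts of all 4 genes cause pachyonychia congenita, a disease of thickened nails and soles.

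The 4 genes form a pair of neighbours on each of 2 chromosomes, all on the minus strand (GRCm38, GENCODE M21). Krt6a (ENSMUSG00000058354) lies at chr15:101689910-101694307 and Krt6b (ENSMUSG00000023041) at chr15:101676023-101680287, with 9 exons each. Krt16 (ENSMUSG00000053797) lies at chr11:100246091-100248902 and Krt17 (ENSMUSG00000035557) at chr11:100256217-100261029, with 8 exons each. The coding sequences of Krt6a and Krt6b were 97.6% identical and their 3′ UTRs 71.1% identical, while Krt16 and Krt17 shared 71.1% of coding bases and 42.7% of 3′ UTR bases. The last 60 coding bases, stop codon included, are shown. They sit before 3′ UTRs of 557 bases in Krt6a, 506 in Krt6b, 143 in Krt16 and 185 in Krt17. In Krt6a and Krt6b they thus lie outside the last 500 bases of the transcript. Capitals mark bases that differ from the partner, or face a gap, in the alignment of each pair, with Krt6a set against Krt6b and Krt16 against Krt17.
Krt6a (chr15:101690467-101690526, minus strand): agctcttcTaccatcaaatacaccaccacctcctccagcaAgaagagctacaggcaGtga
Krt6b (chr15:101676529-101676588, minus strand): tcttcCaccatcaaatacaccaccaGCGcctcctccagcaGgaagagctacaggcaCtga
Krt16 (chr11:100246234-100246293, minus strand): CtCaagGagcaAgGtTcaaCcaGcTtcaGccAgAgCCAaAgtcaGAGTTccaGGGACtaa
Krt17 (chr11:100256402-100256461, minus strand): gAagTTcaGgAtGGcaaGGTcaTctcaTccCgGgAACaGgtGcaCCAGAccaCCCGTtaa
Of the 451 stretches of 50 bases in the last 500 bases of each transcript, none from Krt6a or Krt6b occurred in another gene's transcript. For Krt16, 76 stretches (16.9%) were shared, with Krt14, Krt17 and the gene model Gm11597. For Krt17, 43 stretches (9.53%) were shared, with Krt14 and Krt16. Counts of Krt16 and Krt17 are uncertain to that extent, since how the authors' counting treated shared reads was not tested.

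The values are UMI counts, each UMI standing for 1 captured RNA molecule, summed over the cells of a class and given as CPM, the gene's share of all UMIs of that class on one common scale. Since a 3′ UMI is counted once per molecule, levels are not divided by gene length. Intervals are 95% intervals for counting error only, and leave out variation between mice and between preparations. Those of levels and ratios treat each UMI as independent, so they also leave out variation between cells. With 1 library per group there is no test of any difference. Kept cells numbered 5563 in Ovol1_null_IMQ, 5221 in Ovol1_null_Untreated, 5583 in Control_IMQ and 6066 in Control_Untreated, with 29706014 to 55208531 UMIs per library. Keratinocytes of Ovol1_null_IMQ were deeper, at a median of 13793 UMIs per cell against 5053 to 5658 in the other libraries. Across the libraries 267 of 23188 barcode sequences occurred more than once, 234 of them among kept cells. Ovol1 itself was higher in the libraries labelled null than in the matching controls in basal, suprabasal, upper follicle and Sostdc1 cluster cells: in suprabasal cells it had 167 CPM in Ovol1_null_IMQ and 51.7 CPM in Ovol1_null_Untreated, against 32.0 CPM in Control_IMQ and 20.0 CPM in Control_Untreated. It was lower in outer bulge cells under imiquimod, with 25.0 CPM in Ovol1_null_IMQ against 34.3 CPM in Control_IMQ, and in untreated unnamed keratinocytes, with 58.1 CPM in Ovol1_null_Untreated against 82.1 CPM in Control_Untreated. A 3′ tag checks nothing of a deletion elsewhere in the gene, so the genotype is given as labelled throughout.

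Classes were built without the 4 keratins: basal cells (high Krt5 and Krt14), suprabasal cells (high Krt1 and Krt10), upper hair follicle cells (high Krt79), outer bulge cells (Lhx2 and Lgr5 among their markers), and an unnamed cluster led by Sostdc1. Cells per class and library numbered 138 to 955. Most interfollicular cells of Ovol1_null_IMQ, 496 of 521 basal and 337 of 373 suprabasal, fell into 1 joint cluster led by BC100530, and took their class from a clustering of that library alone. In the other libraries basal cells were mostly in clusters of untreated cells (601 of 715 in Ovol1_null_Untreated and 416 of 509 in Control_Untreated) or in a cluster of Control_IMQ (807 of 955). Suprabasal cells of Ovol1_null_Untreated (829 of 846) and Control_Untreated (481 of 487) shared 1 cluster. Most of those of Control_IMQ (767 of 825) were in another. Fibroblasts, which should lack these keratins, serve as the background of free RNA. Krt6a, Krt6b, Krt16 and Krt17 had 20.1, 6.27, 30.9 and 45.3 CPM in fibroblasts of Ovol1_null_IMQ. In fibroblasts of the other libraries Krt6a, Krt6b and Krt16 stayed between 0 and 4.96 CPM, while Krt17 had 83.8 CPM in Ovol1_null_Untreated, 88.0 CPM in Control_IMQ and 24.5 CPM in Control_Untreated.

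**Figure D1:**
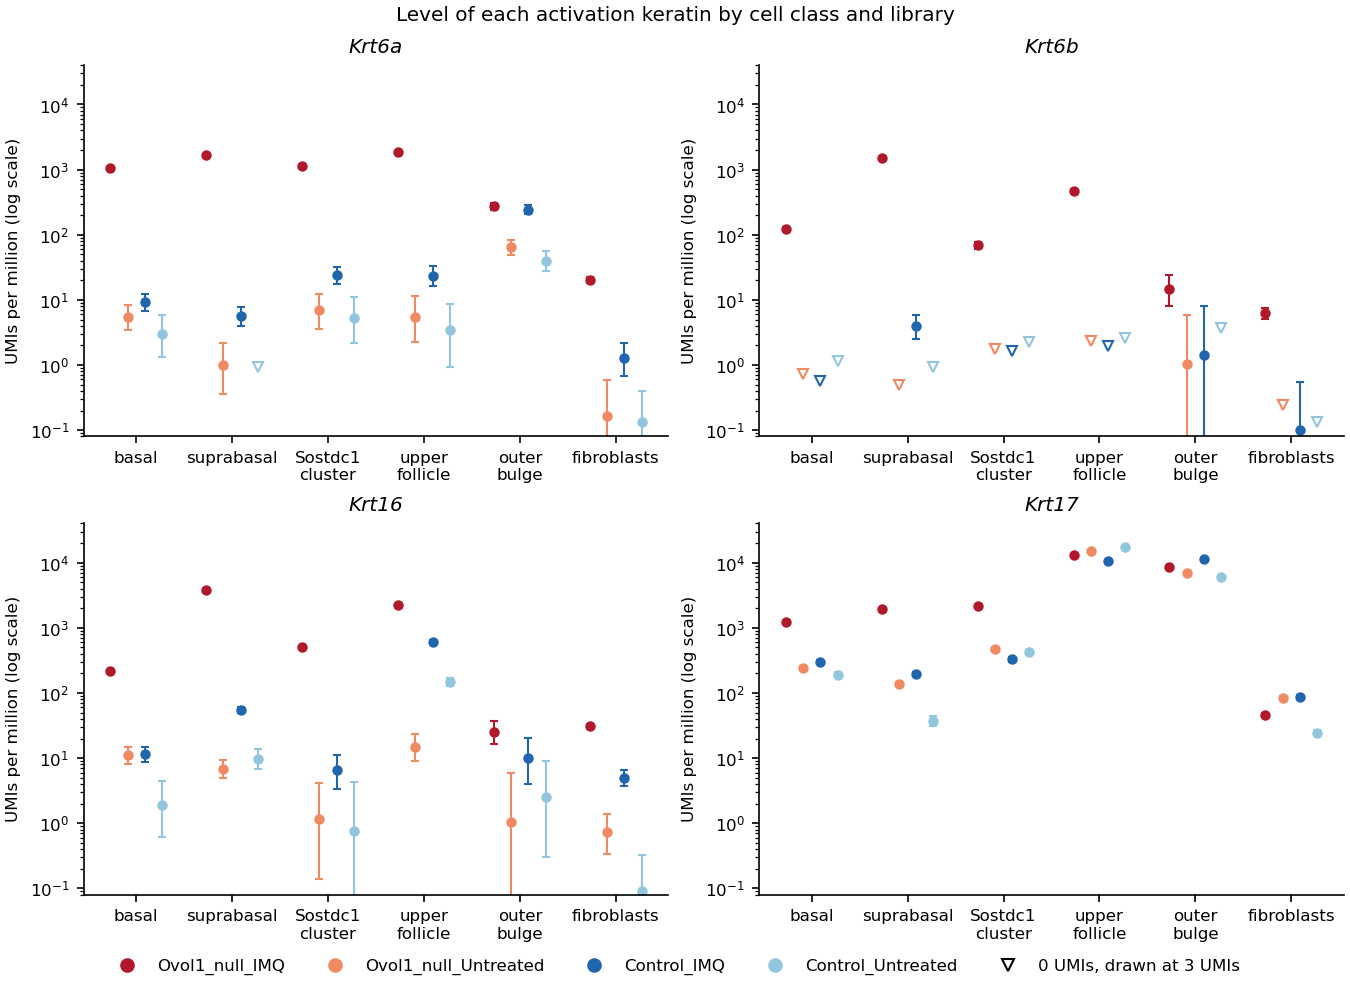
Level of each activation keratin (CPM, log scale) in 5 keratinocyte classes and fibroblasts, by library, with 95% Poisson intervals; open triangles stand at 3 UMIs where none was counted. Ovol1_null_IMQ stands above the other libraries for Krt6a, Krt6b and Krt16 in basal and suprabasal cells (Krt16 3819 CPM in suprabasal cells), and Krt17 is high in both follicle classes of every library, at 6118 CPM or more.

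The 4 keratins had their highest interfollicular levels in the library labelled Ovol1_null_IMQ, and there suprabasal cells exceeded basal cells for each. Krt6a had 1687 CPM in suprabasal cells of Ovol1_null_IMQ, 0.99 CPM in Ovol1_null_Untreated, 5.65 CPM in Control_IMQ and no UMI in the 487 cells of Control_Untreated, which allows up to 0.92 CPM at a floor of 3 UMIs. Only Ovol1_null_IMQ was high, and the counting intervals of Ovol1_null_Untreated (0.37 to 2.17 CPM) and Control_IMQ (3.95 to 7.82 CPM) stood apart from each other. In basal cells Krt6a had 1070.3 CPM in Ovol1_null_IMQ, 5.49 CPM in Ovol1_null_Untreated, 9.25 CPM in Control_IMQ and 3.03 CPM in Control_Untreated. The 3 lower basal levels rested on 23, 48 and 8 UMIs, and their intervals overlapped between neighbours in that order of level.

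Krt6b, the near-copy of Krt6a, was the most restricted of the 4. All kept cells of Ovol1_null_IMQ held 14404 Krt6b UMIs, against 1 in Ovol1_null_Untreated, 27 in Control_IMQ and 0 in Control_Untreated. Suprabasal cells held 77.3% of the Krt6b UMIs of Ovol1_null_IMQ, at 1532 CPM, and basal cells had 124 CPM. In Control_IMQ, 25 of the 27 UMIs came from suprabasal cells (3.92 CPM), and 1 cell carried 23 of them. Basal cells of Ovol1_null_Untreated, Control_IMQ and Control_Untreated had no Krt6b UMI, which allows up to 0.72, 0.58 and 1.13 CPM.

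Krt16, the type I partner of the Krt6 chains, had the highest suprabasal level of the 4 in Ovol1_null_IMQ, while Krt17 had it in the other libraries. Krt16 reached 3819 CPM in suprabasal cells of Ovol1_null_IMQ, against 6.80 CPM in Ovol1_null_Untreated, 54.1 CPM in Control_IMQ and 9.82 CPM in Control_Untreated. The untreated libraries overlapped in their intervals (4.88 to 9.22 CPM and 6.72 to 13.9 CPM), and 31 of the 41 UMIs of Ovol1_null_Untreated and 21 of the 32 of Control_Untreated lay in 1 cell each. In basal cells Krt16 had 214 CPM in Ovol1_null_IMQ, 11.0 CPM in Ovol1_null_Untreated, 11.6 CPM in Control_IMQ and 1.89 CPM in Control_Untreated. Ovol1_null_Untreated and Control_IMQ could not be told apart in basal cells, and 1 cell of Ovol1_null_Untreated held 23 of its 46 UMIs.

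Krt17 had the highest level of the 4 in each of the 5 keratinocyte classes of Ovol1_null_Untreated, Control_IMQ and Control_Untreated. In suprabasal cells it had 1956 CPM in Ovol1_null_IMQ, 137 CPM in Ovol1_null_Untreated, 196 CPM in Control_IMQ and 37.4 CPM in Control_Untreated. In basal cells it had 1213 CPM in Ovol1_null_IMQ, 246 CPM in Ovol1_null_Untreated, 301 CPM in Control_IMQ and 191 CPM in Control_Untreated. None of these neighbouring levels overlapped in counting interval within a class. A single suprabasal cell of Ovol1_null_Untreated held 194 of 827 Krt17 UMIs, and the fibroblast levels of 24.5 to 88.0 CPM are a sizeable part of the lower values.

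Within Ovol1_null_IMQ the order of the classes differed between the keratins. Krt6a ran from upper follicle (1842 CPM) through suprabasal (1687 CPM), the Sostdc1 cluster (1122 CPM) and basal (1070.3 CPM) to outer bulge (272 CPM), with the Sostdc1 cluster and basal cells overlapping in interval. Krt6b ran from suprabasal (1532 CPM) through upper follicle (470.5 CPM), basal (124 CPM) and the Sostdc1 cluster (69.0 CPM) to outer bulge (14.4 CPM). Krt16 was likewise highest in suprabasal cells and next in upper follicle cells (2279 CPM), with 509 CPM in the Sostdc1 cluster, 214 CPM in basal and 25.0 CPM in outer bulge cells. Krt17 had 13087 CPM in upper follicle, 8443 CPM in outer bulge, 2156 CPM in the Sostdc1 cluster, 1956 CPM in suprabasal and 1213 CPM in basal cells. So Krt6b and Krt16 shared an order in their first 2 places and Krt17 had the follicle classes on top.

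For skin labelled Ovol1 null, imiquimod was set against no treatment as Ovol1_null_IMQ over Ovol1_null_Untreated. With 1 library per group, treatment cannot be told apart from differences between mice or preparations. A gene is counted as higher or lower at a CPM ratio of at least 2-fold with at least 20 UMIs over both libraries. A keratin without a UMI in the library divided by, as Krt6b here, passes that minimum only through the other library. Its call as higher is then fixed by the rule. All 4 keratins were higher in basal cells, where 9% of 10906 genes measured were higher and 18.1% lower. All 4 were also higher in suprabasal cells, where 9.45% of 10543 genes were higher and 18.6% lower. In basal cells the ratio was 195 for Krt6a (130 to 308), 19.5 for Krt16 (14.5 to 26.7) and 4.93 for Krt17 (4.62 to 5.26), and Krt6b was at least 173-fold higher against a floor of 3 UMIs. In suprabasal cells it was 1696 for Krt6a (779 to 4622), 562 for Krt16 (414 to 783) and 14.3 for Krt17 (13.3 to 15.3), and Krt6b was at least 3080.2-fold higher. Fibroblasts of the same libraries had 20.1 CPM against 0.16 CPM of Krt6a and 45.3 CPM against 83.8 CPM of Krt17, so the background was lower for Krt17 and higher for Krt6a in Ovol1_null_IMQ. Over 9 alternatives the suprabasal log2 ratio of Krt6a ran from 10.61 to 14.17, of Krt16 from 8.35 to 15.36 and of Krt17 from 3.75 to 4.54, each highest without the top 1% of cells. For Krt6a and Krt16 that left no UMI in Ovol1_null_Untreated, where only 8 suprabasal cells had Krt6a, Krt6b or Krt16. Their upper ends rest on 0.5 UMI added to each count.

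In control skin the imiquimod ratios had smaller values, a difference that was not tested. In suprabasal cells all 4 were higher in Control_IMQ than in Control_Untreated, where 5.86% of 10010 genes were higher and 4.03% lower. Krt6a (36 UMIs) and Krt6b (25 UMIs) passed the minimum only through Control_IMQ, so their calls could not have gone otherwise. Most of these Krt6b UMIs came from 1 cell. The ratio was 5.51 for Krt16 (3.83 to 8.18) and 5.25 for Krt17 (4.35 to 6.37), and Krt6a and Krt6b were at least 6.13-fold and 4.26-fold higher against 3 UMIs. Without the 1% of cells with most UMIs of each gene, only Krt16 and Krt17 were counted as higher. Krt6a and Krt6b then fell under 20 UMIs and could not be measured. In basal cells Krt6a (3.06, 1.43 to 7.48) and Krt16 (6.11, 2.48 to 19.5) were higher, where 5.02% of 10205 genes were higher and 7.3% lower, and Krt6b could not be measured. The basal Krt16 call was lost when called doublets were kept. Krt17 had a ratio of 1.58 in basal cells (1.42 to 1.75), a log2 ratio of 0.65 that ran over 9 alternatives from -0.42 under separate clustering of each library to 1.24 without the top 1% of cells, and was counted as higher in 3. Over the same alternatives the basal log2 ratio ran from 1.12 to 4.87 for Krt6a and from 0.52 to 5.09 for Krt16, and the suprabasal one from 1.41 to 7.14 for Krt16 and from 2.03 to 2.78 for Krt17. The upper ends of Krt6a and Krt16 came without the top 1% of cells, which left no UMI of these genes in Control_Untreated. There only 6 basal and 5 suprabasal cells had Krt6a, Krt6b or Krt16. These ends rest on 0.5 UMI added to each count. Fibroblasts also had more Krt16 and Krt17 in Control_IMQ (4.96 and 88.0 CPM) than in Control_Untreated (0.09 and 24.5 CPM), a ratio of 3.59 for Krt17, and the same keratins were counted as higher after the fibroblast CPM of each library had been subtracted, an alternative chosen after seeing the data.

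Under imiquimod, the library labelled null was set against the control. In suprabasal cells Krt6a had a ratio of 299 (216 to 427), Krt6b 391 (265 to 604), Krt16 70.6 (63.5 to 78.7) and Krt17 9.96 (9.40 to 10.6). All 4 were counted as higher there, where 8.78% of 10507 genes were higher and 13.7% lower. In basal cells Krt6a had a ratio of 116 (87.2 to 157), Krt16 18.5 (14.3 to 24.3) and Krt17 4.03 (3.82 to 4.25), and Krt6b was at least 214-fold higher. All 4 were higher there too, where 11.7% of 10897 genes were higher and 13.7% lower. This comparison shares Ovol1_null_IMQ with the comparison to Ovol1_null_Untreated. Cells of Ovol1_null_IMQ were also deeper, at medians of 15418 and 18784 UMIs in basal and suprabasal cells, against 4982 and 7398 UMIs in Control_IMQ. Among cells with 3100 to 10000 UMIs only, 107 basal and 49 suprabasal cells of Ovol1_null_IMQ remained, and all 4 keratins were still counted as higher. Over 9 alternatives the suprabasal log2 ratio of Krt6a ran from 7.59 to 10.55, of Krt6b from 7.66 to 14.07, of Krt16 from 5.60 to 7.34 and of Krt17 from 3.19 to 3.55, the first 3 of these highest without the top 1% of cells. For Krt6b that left no UMI in Control_IMQ, so 14.07 rests on 0.5 UMI added to each count.

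Between the untreated libraries few of the keratins passed 2-fold in the epidermis. In basal cells 1 of 3 measured was higher in Ovol1_null_Untreated than in Control_Untreated, Krt16 with a ratio of 5.81 (2.32 to 18.7), where 2.51% of 10067 genes were higher. That call was lost without the 1% of cells with most Krt16 UMIs, where too few UMIs were left to measure it, and turned round when called doublets were kept. In suprabasal cells 1 of 2 measured was higher, Krt17 with a ratio of 3.66 (3.03 to 4.47), where 3.39% of 9994 genes were higher. Fibroblast Krt17 had a ratio of 3.42 (3.08 to 3.81) between the same libraries, at 83.8 against 24.5 CPM, and the suprabasal call was kept with the fibroblast CPM subtracted. Krt16 had a suprabasal ratio of 0.69 (0.425 to 1.14), an interval on both sides of 1, and was counted as higher, with a log2 ratio of 1.68, when called doublets were kept.

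**Figure D2:**
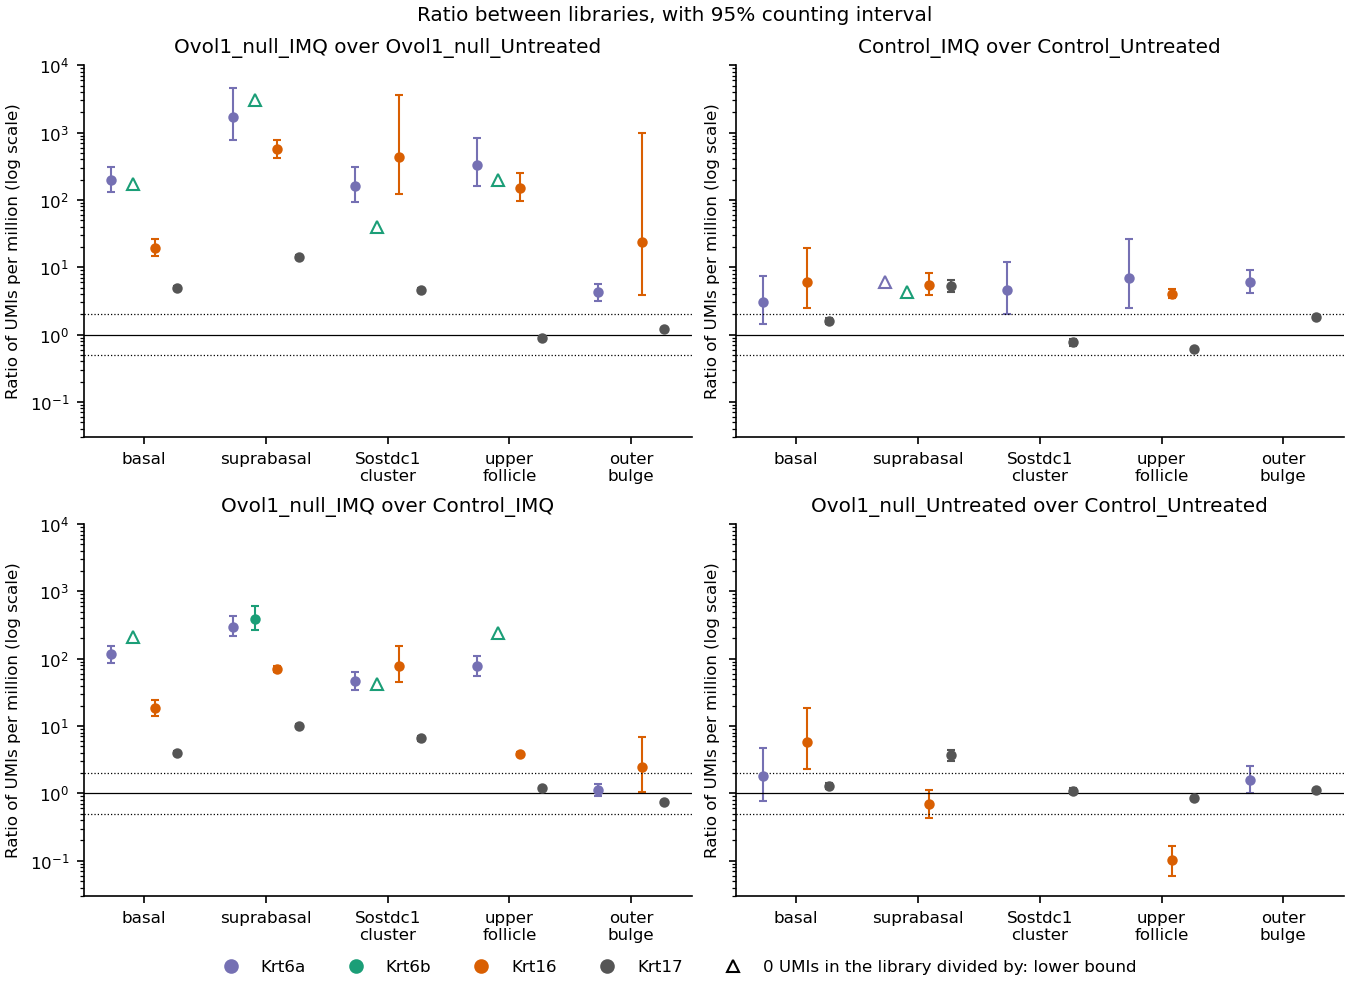
Ratio of CPM between libraries (log scale) for each keratin in 5 classes, 1 panel per comparison, with 95% counting intervals; open triangles are lower bounds, and dotted lines mark 2-fold. The ratios of Ovol1_null_IMQ in suprabasal cells reach 1696 for Krt6a over Ovol1_null_Untreated and 299 over Control_IMQ, while Krt17 in the follicle classes stays between 0.62 and 1.83.

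In the upper hair follicle, the funnel of the follicle that opens to the skin surface, Krt17 was abundant in every library and Krt16 was not. Krt17 had 13087 CPM in Ovol1_null_IMQ, 14960.3 CPM in Ovol1_null_Untreated, 10770.5 CPM in Control_IMQ and 17386 CPM in Control_Untreated. Its ratios stayed under 2-fold in all 4 comparisons, from 0.62 for Control_IMQ over Control_Untreated to 1.22 for Ovol1_null_IMQ over Control_IMQ. Under separate clustering of each library, which drew this class at 225 to 565 cells, Krt17 passed 2-fold in 3 of these. The log2 ratio was then 1.27 for Ovol1_null_IMQ over Control_IMQ, -1.16 for Ovol1_null_Untreated over Control_Untreated and -1.51 for Control_IMQ over Control_Untreated. Krt16 had 2279 CPM in Ovol1_null_IMQ, 15.1 CPM in Ovol1_null_Untreated, 601 CPM in Control_IMQ and 149 CPM in Control_Untreated. Both imiquimod libraries were above both untreated ones, and Ovol1_null_Untreated was the lowest, with 19 UMIs.

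By the same rule, Krt6a and Krt16 were higher in upper follicle cells of Control_IMQ than of Control_Untreated, where 4.64% of 7471 genes were higher, with ratios of 6.88 (2.47 to 26.6) and 4.04 (3.43 to 4.78). In Ovol1_null_IMQ over Ovol1_null_Untreated 3 of 4 were higher (all but Krt17), where 10.3% of 8521 genes were. Krt16 had a ratio of 151 there (96.9 to 252). In Ovol1_null_IMQ over Control_IMQ 3 of 4 were higher (again all but Krt17), where 8.42% of 8535 genes were, with 3.79 for Krt16 (3.54 to 4.07) and 77.9 for Krt6a (56.2 to 111). In Ovol1_null_Untreated over Control_Untreated none of 2 measured was higher, where 2.65% of 7315 genes were, and 1 was lower, where 2.31% were. That was Krt16, at 0.10 (0.0595 to 0.163), or 9.88-fold lower.

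Outer bulge cells, which hold the follicle's stem cells, were the one of the 5 classes where Krt6a was highest in each of the libraries other than Ovol1_null_IMQ. Krt6a had 272 CPM in Ovol1_null_IMQ, 64.0 CPM in Ovol1_null_Untreated, 243 CPM in Control_IMQ and 39.9 CPM in Control_Untreated. The imiquimod libraries were the high ones under both genotype labels. The ratio was 4.24 (3.21 to 5.69) for Ovol1_null_IMQ over Ovol1_null_Untreated and 6.08 (4.15 to 9.17) for Control_IMQ over Control_Untreated. Under separate clustering of each library, the outer bulge class of Control_Untreated had 523 cells in place of 138. Of these, 377 were in a cluster led by Gpx3, Mlana and Cxcl12. Those genes also led a joint cluster named fibroblasts, so ratios over this wider class are not of bulge cells alone. The log2 ratio of Krt6a over the wider class of Control_Untreated was 4.61 in place of 2.59 for Control_IMQ. For Ovol1_null_Untreated it was 2.74 in place of 0.67, counted as higher. Ovol1_null_IMQ over Control_IMQ gave 1.12 (0.921 to 1.36), so a difference beyond counting error was not detectable. This counting interval excludes a ratio of 2, but it leaves out variation between cells. Of 186 outer bulge cells of Ovol1_null_IMQ, 1 held 49 of the 282 Krt6a UMIs. The inner bulge marker Krt75 had 4.81 CPM in the class in Ovol1_null_IMQ, 1.05 in Ovol1_null_Untreated, 12.9 in Control_IMQ and 3.74 in Control_Untreated. Other keratinocyte classes had at most 1.46 CPM. These low values rest on few UMIs. Whether inner bulge or companion cells lay in the class and carried its Krt6a was not tested.

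Krt17 had 8443 CPM in outer bulge cells of Ovol1_null_IMQ, 6917 CPM in Ovol1_null_Untreated, 11226 CPM in Control_IMQ and 6118 CPM in Control_Untreated. Control_IMQ was the highest. Its ratio to Control_Untreated was 1.83 (1.77 to 1.90), and that of Ovol1_null_IMQ to Control_IMQ 0.752 (0.730 to 0.775). Under separate clustering of each library, Krt17 was counted as higher over Control_Untreated, with log2 ratios of 2.92 for Control_IMQ and 2.25 for Ovol1_null_Untreated. Both rest on the same wider class of Control_Untreated, which holds the cluster led by Gpx3. Higher by the 2-fold rule were 1 of 2 keratins in Control_IMQ over Control_Untreated (Krt6a, against 8.83% of 6545 genes) and 2 of 3 in Ovol1_null_IMQ over Ovol1_null_Untreated (Krt6a and Krt16, against 4.86% of 7269 genes). The others were 0 of 2 in Ovol1_null_Untreated over Control_Untreated (2.53% of 7043 genes) and 1 of 3 in Ovol1_null_IMQ over Control_IMQ (Krt16, against 8.13% of 6825 genes). Bulge Krt16 was 25.0 CPM in Ovol1_null_IMQ, below the 30.9 CPM of fibroblasts in that library. Bulge cells had 11072 to 14442 CPM summed over 12 dissociation and immediate early genes, against 1594 to 3999 CPM in basal and suprabasal cells. Unnamed keratinocytes had more, 13422 to 17430 CPM, in the 3 libraries other than Ovol1_null_IMQ.

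In the Sostdc1 cluster all 4 keratins were higher in Ovol1_null_IMQ than in Ovol1_null_Untreated (15.4% of 9472 genes) and than in Control_IMQ (15.9% of 9416 genes). Krt6a had 1122 CPM in Ovol1_null_IMQ, 6.97 CPM in Ovol1_null_Untreated, 24.3 CPM in Control_IMQ and 5.33 CPM in Control_Untreated. Krt17 had 2156, 468, 329 and 428 CPM in the same order of libraries. Krt6a was the 1 of 2 measured that was higher in Control_IMQ over Control_Untreated (4.75% of 8079 genes), with a ratio of 4.56 (2.04 to 11.97), and 0 of 1 was higher in Ovol1_null_Untreated over Control_Untreated (2.97% of 8075 genes). Only 85 of the 293 cells of Ovol1_null_IMQ were in the joint cluster. These had 289 CPM of Krt6a, 2.92 CPM of Krt6b, 30.7 CPM of Krt16 and 1087 CPM of Krt17. Their Krt6b and Krt16 were no higher than in fibroblasts of that library. The remaining cells were placed in the class by the clustering of that library alone. Sostdc1 itself was lower in the class (218 CPM against 691 to 1078 CPM elsewhere). The log2 ratio of Krt16 over Control_IMQ ran from 1.95 under a stricter cell filter to 6.96, and that of Krt6a from 3.83 to 5.97.

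Where a library's keratin RNA lay shifted with the library. In Ovol1_null_IMQ 69.6% of Krt16 UMIs were in suprabasal and 17.1% in upper follicle cells. In Control_IMQ 61.0% were in upper follicle and 23.0% in suprabasal cells, and in Control_Untreated 73.0% were in upper follicle cells. Outer bulge cells held 46.9% of Krt6a UMIs in Ovol1_null_Untreated, 40.3% in Control_IMQ and 44.4% in Control_Untreated. In Ovol1_null_IMQ 36.8% of Krt6a was suprabasal and 29.2% basal. Upper follicle cells held the largest part of Krt17 in each library, from 46.4% in Ovol1_null_IMQ to 68.6% in Control_Untreated. These shares also move with the number of cells of each class that were captured.

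The make-up of the 4 transcripts differed between classes of the same library. In suprabasal cells of Ovol1_null_IMQ, Krt16 made up 42.5% of the 4 keratins' UMIs, Krt17 21.7%, Krt6a 18.8% and Krt6b 17.0%. In its basal cells Krt17 made up 46.3%, Krt6a 40.8%, Krt16 8.16% and Krt6b 4.72%. Krt6a outnumbered Krt6b by 1.10 to 1 in suprabasal cells, 8.66 to 1 in basal, 3.92 to 1 in upper follicle and 16.3 to 1 in the Sostdc1 cluster. The type II chains (Krt6a and Krt6b) came to 0.557 UMIs per type I UMI (Krt16 and Krt17) in suprabasal cells of Ovol1_null_IMQ and to 0.837 in basal cells. In basal cells of the other 3 libraries Krt17 alone made up 93.5% to 97.5%.

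**Figure D3:**
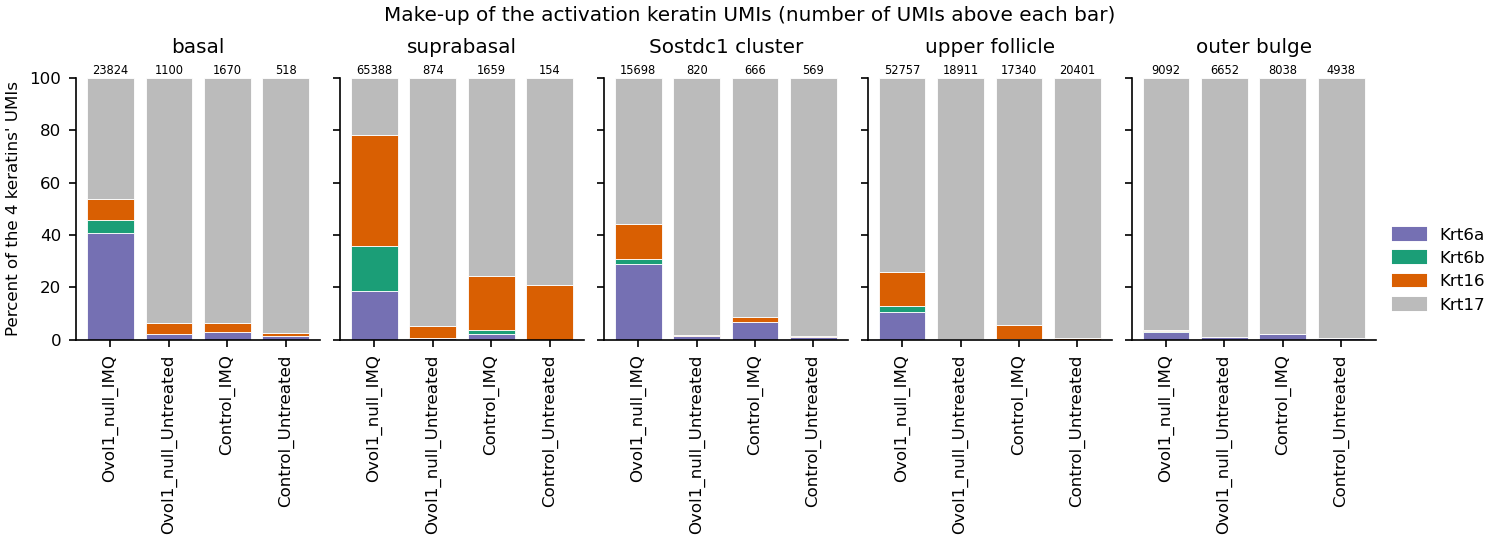
Percent of the UMIs of the 4 activation keratins taken by each, in 5 keratinocyte classes, with the number of UMIs above each bar. Suprabasal cells of Ovol1_null_IMQ are split over all 4 genes, with Krt17 at 21.7%, while Krt17 fills 91.4% or more of the bars of the other libraries in the basal, Sostdc1, upper follicle and outer bulge classes.

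Against all keratin genes, the 4 made up 18.5% of keratin UMIs in suprabasal cells of Ovol1_null_IMQ, 0.473% in Ovol1_null_Untreated, 0.976% in Control_IMQ and 0.148% in Control_Untreated. In basal cells they made up 7.29%, 0.960%, 1.45% and 0.713% in the same order of libraries. In the upper follicle they made up 40.3%, 45.5%, 34.0% and 49.7%. The epidermal shares were thus highest in Ovol1_null_IMQ and the upper follicle share highest in Control_Untreated.

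To compare shares of cells across depths, each cell was thinned to 1000 UMIs, which left out no cell of these classes. In suprabasal cells of Ovol1_null_IMQ 61.1% of cells had a Krt16 UMI, 48.3% Krt6a, 48.0% Krt17 and 37.5% Krt6b. In basal cells of that library 46.8% had Krt6a, 43.8% Krt17, 10.9% Krt16 and 6.72% Krt6b. Fibroblasts of the same library had 1.85% with Krt6a, 0.582% with Krt6b, 2.75% with Krt16 and 4.29% with Krt17. In basal and suprabasal cells of the other 3 libraries, at most 0.942% of thinned cells had Krt6a, 0.242% Krt6b and 3.15% Krt16, while 3.08% to 18.1% had Krt17.

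Without thinning, 86.1% of suprabasal cells of Ovol1_null_IMQ had a Krt16 UMI (82.1% to 89.4%, Clopper-Pearson), against 9.70% in Control_IMQ (7.76% to 11.9%). Fibroblasts had 20.8% and 2.26% in the same libraries, at median depths of 8621 and 4515 UMIs. In the upper follicle 55.5% of thinned cells had Krt16 in Ovol1_null_IMQ, 0.820% in Ovol1_null_Untreated, 23.9% in Control_IMQ and 6.22% in Control_Untreated. In outer bulge cells 18.3% had Krt6a in Ovol1_null_IMQ, 5.85% in Ovol1_null_Untreated, 17.4% in Control_IMQ and 5.07% in Control_Untreated. Both orders follow those of the CPM levels.

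**Figure D4:**
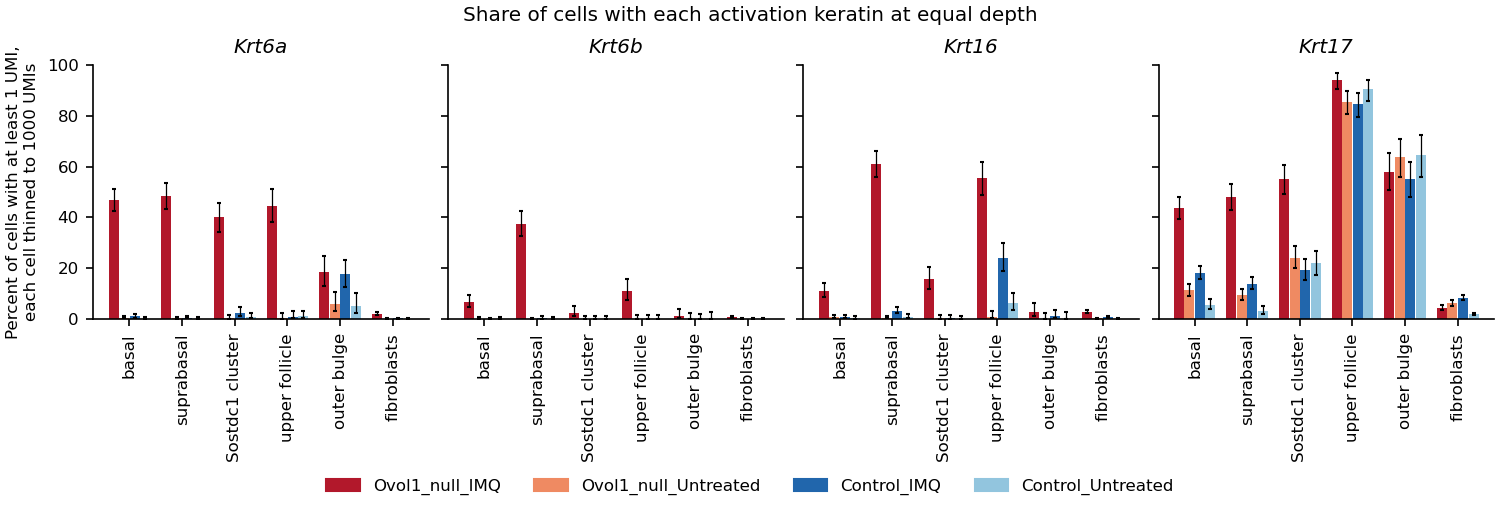
Percent of cells with at least 1 UMI of each keratin after thinning every cell to 1000 UMIs, by class and library, with 95% Clopper-Pearson intervals. Krt16 is seen in 61.1% of suprabasal cells of Ovol1_null_IMQ and in 3.15% of those of Control_IMQ, and Krt17 in 84.8% to 94.3% of upper follicle cells in all 4 libraries.

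How evenly the RNA was spread over cells differed by gene and class. Suprabasal cells of Ovol1_null_IMQ with a Krt16 UMI had a median of 43 Krt16 UMIs and a highest value of 724, and the richest 10% of cells held 47.2% of the Krt16 UMIs. Krt6b in that library had a median of 24.5 UMIs in positive suprabasal cells but of 2 in positive basal cells, where the richest 10% of cells held 88.1% of its UMIs. Krt6a was more evenly spread, with 43.2% of basal and 49.3% of suprabasal UMIs in the richest 10% of cells, and medians of 21.5 UMIs in suprabasal and 12 in basal positive cells. In Control_IMQ the median positive suprabasal cell had 1 UMI of Krt6a, Krt6b, Krt16 or Krt17.

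Suprabasal cells often carried all 4 genes in Ovol1_null_IMQ: 209 of 373 (56.0%) had at least 1 UMI of each, against 1 of 825 in Control_IMQ and none in the untreated libraries. All 4 were seen in 89 of 521 basal, 51 of 229 upper follicle, 30 of 293 Sostdc1 cluster and 1 of 186 outer bulge cells of Ovol1_null_IMQ. After thinning, 16.1% of suprabasal and 0.576% of basal cells of that library had all 4, and no cell of these classes in the other libraries did. Upper follicle cells of Control_IMQ reached 24.3% with exactly 2 members after thinning, against 7.11% in Control_Untreated.

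**Figure D5:**
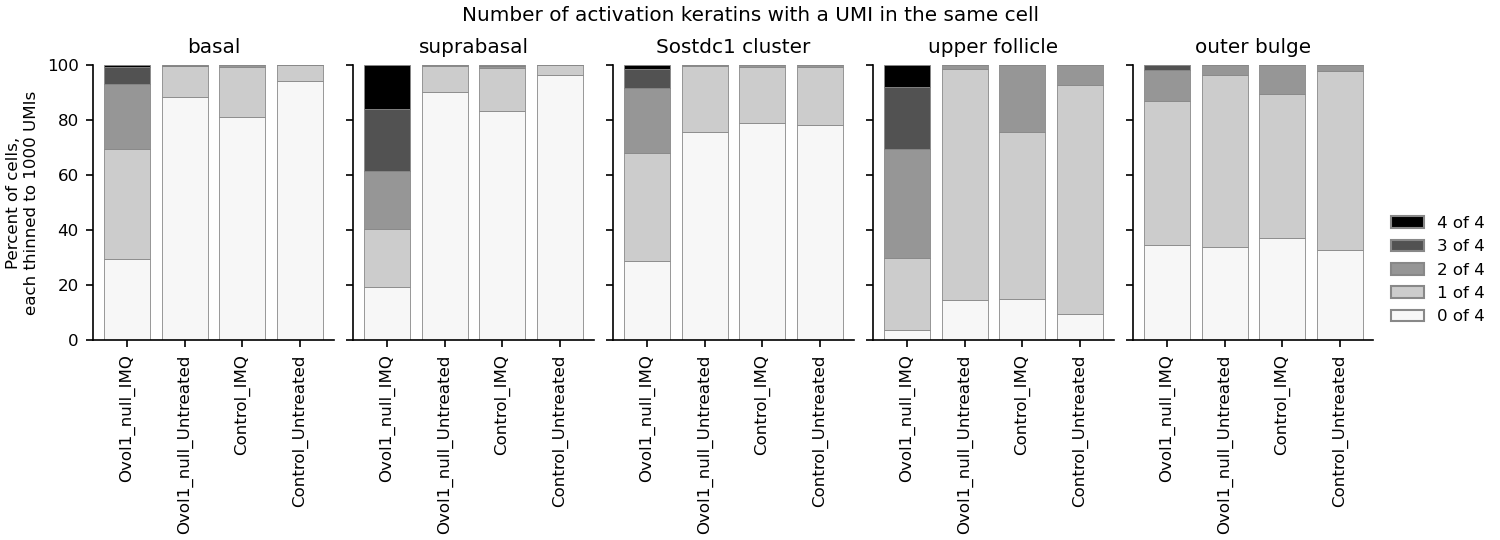
Percent of cells with UMIs of 0 to 4 of the activation keratins after thinning to 1000 UMIs, by class and library. In suprabasal cells of Ovol1_null_IMQ 16.1% of cells have all 4 and 19.3% none, while 83.4% of those of Control_IMQ and 96.3% of those of Control_Untreated have none.

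Co-detection differed by pair and class in Ovol1_null_IMQ, on thinned cells. In suprabasal cells, Krt6b was seen in 55.3% of cells with Krt16 and in 9.66% of cells without it. Krt6a was seen in 70.7% of cells with Krt6b against 34.8% without, and Krt16 in 79.9% of cells with Krt17 against 43.8% without. In basal cells Krt6b was seen in 17.5% of cells with Krt16 against 5.39% without, but Krt16 in 10.5% of cells with Krt17 against 11.3% without. The shares for the type I pair were thus apart in suprabasal and close in basal cells. In upper follicle cells of Control_IMQ Krt16 was seen in 27.7% of cells with Krt17 and in 2.70% without, and in outer bulge cells of that library Krt6a was seen in 17.5% of cells with Krt17 and in 17.3% without. These are descriptions of cells of 1 library each, not of conditions.

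Cells with a member differed from cells without it in other epidermal genes, at unequal depth. In suprabasal cells of Ovol1_null_IMQ, the 294 cells with Krt6a had 8255 CPM of Krt1, 9481 of Krt10 and 16197 of Krt14, against 14438.5, 19939 and 5292 CPM in the 79 cells without it, at medians of 19808 and 16255 UMIs. Krt1 and Krt10 are keratins of differentiating layers and Krt14 of the basal layer. The 321 cells with Krt16 had 14986 CPM of S100a8, 375 of the envelope precursor Sprr1b, 243 of Gjb2 (connexin 26) and 101.6 of Krt77. The 52 cells without Krt16 had 3358, 25.3, 11.9 and 721 CPM of these, at a median of 11839.5 UMIs against 19653. In Control_IMQ the 80 suprabasal cells with Krt16 had 424 CPM of Krt17, 163 of Sprr2d and 95.9 of Sprr1a, against 162, 31.9 and 26.7 CPM in the 745 cells without, at medians of 9240.5 and 7264 UMIs.

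In basal cells of Control_IMQ the few cells with Krt6a or Krt16 were compared with the rest in the same way. The 38 cells with a Krt6a UMI had 1485 CPM of Fos, 1133 of Atf3, 695 of S100a8 and 209 of the mitotic gene Top2a, against 366, 157, 28.4 and 56.8 CPM in the 917 cells without, at medians of 8099 and 4917 UMIs. The 43 cells with Krt16, at a median of 6797 UMIs, had 1179 CPM of Fos, 1050.4 of Atf3, 884 of Krt17 and 9.41 of S100a8, against 390.0, 166, 263 and 75.5 CPM in the 912 without. Fos and Atf3 are immediate early genes that dissociation also raises, and their part in these differences was not tested.

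Likeness of pattern was measured as Pearson's r of log2(CPM + 10) over 46 points, each a cell class in a library with at least 50 cells, among 12408 genes with at least 200 UMIs. The points share 4 libraries and differ in depth and cell number, so r is a description. For Krt6a the nearest genes were Gjb2 (0.871), Krt6b (0.838), the alarmins S100a8 (0.811) and S100a9 (0.810), and BC100530 (0.808). For Krt6b they were Sprr1b (0.916), the defensin Defb3 (0.886), the cystine transporter Slc7a11 (0.871), the cystatin Csta1 (0.865) and Sprr2h (0.858). For Krt16 they were Sprr1b (0.908), S100a8 (0.878), Serpinb3b (0.875), Sprr2d (0.875) and S100a9 (0.873). Krt17 had other neighbours: Cwh43 (0.894), the follicle transcription factor Sox9 (0.881), Phyhip (0.866), the protease inhibitor Spink5 (0.862) and the vitamin D receptor Vdr (0.858). Krt17 had r = 0.559 with Krt6a, 0.451 with Krt16 and 0.269 with Krt6b.

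Over single keratinocytes, with log(1 + UMIs per 10000), the neighbours depended on the library. In the 1617 keratinocytes of Ovol1_null_IMQ Krt6a was nearest to S100a9 (0.468), S100a8 (0.463) and Gjb2 (0.430), Krt6b to Krt16 (0.654), Fabp5 (0.612) and Sprr2h (0.549), and Krt16 to Fabp5 (0.711), Sult2b1 (0.689) and Endou (0.675). Fabp5 is an epidermal fatty acid carrier and Sult2b1 makes cholesterol sulphate in upper layers. In the 2870 keratinocytes of Control_IMQ Krt6a was nearest to Angptl7 (0.402), Ctgf (0.391) and Id2 (0.307), and Krt16 to Sprr1a (0.406), Pinlyp (0.405) and Krt79 (0.400). Krt6a and Krt16 had r = 0.359 in Ovol1_null_IMQ and -0.02 in Control_IMQ. Krt17 was nearest to Krt79, the upper follicle keratin, in Ovol1_null_Untreated (0.643), Control_IMQ (0.526) and Control_Untreated (0.724), and to Spink5 (0.540), Cst6 (0.540) and Krt79 (0.533) in Ovol1_null_IMQ. In Ovol1_null_Untreated and Control_Untreated the other 3 keratins were seen in too few cells.

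Other genes of the activated epidermis were read from lists, by the same 2-fold rule. Of 30 wound epidermis genes, 28 were in the gene table. In suprabasal cells 22 of 24 measured were higher in Ovol1_null_IMQ than in Control_IMQ and none lower, with a median log2 ratio of 4.45 against -0.07 over all genes, of which 8.78% were higher. Defb3 had the highest log2 ratio of the list. S100a8 had 13910.3 CPM against 25.1 CPM, Sprr1b 343 against 6.59 and Gjb2 221 against 1.41. Il1b had 4.54 against 4.23, the lowest ratio of the list. In basal cells 22 of 25 were higher and none lower, where 11.7% of all genes were higher, with a median of 3.35 against 0.01. For Ovol1_null_IMQ over Ovol1_null_Untreated 21 of 24 were higher in suprabasal cells (9.45% of all genes), with a median of 6.68 against -0.185 over all genes. In basal cells 21 of 25 were higher and 1 lower (9% and 18.1% of all genes), with a median of 4.31 against -0.19. For Control_IMQ over Control_Untreated 9 of 15 were higher and 1 lower in suprabasal cells (5.86% and 4.03% of all genes), with a median of 2.49 against -0.13. In basal cells 7 of 13 were higher and 2 lower (5.02% and 7.3% of all genes), with a median of 0.97 against -0.23. A gene needs 20 UMIs over both libraries, so some entered the counts only through Ovol1_null_IMQ, where they are high. The list was also chosen with earlier results of these data known. Its genes BC100530, Stfa3, S100a8, S100a9 and Sprr2h led the joint cluster that held most interfollicular cells of Ovol1_null_IMQ.

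The keratins of resting epidermis moved in both directions beside the activation keratins. In suprabasal cells Krt14 had 14402 CPM in Ovol1_null_IMQ and 1766 CPM in Ovol1_null_Untreated, a ratio of 8.16, and Krt15 had 114 and 4760.1 CPM, 41.6-fold lower. Of 6 differentiation keratins 4 were lower and none higher in suprabasal cells of that comparison, where 18.6% of all genes were lower. Krt2 had the lowest ratio (18.1-fold lower), and Krt1 the highest, at 1.52, or 9273 CPM in Ovol1_null_IMQ against 6111 CPM in Ovol1_null_Untreated. Krt14 and Krt15 are basal and Krt1 and Krt10 suprabasal markers that named the classes, so their ratios also depend on where the line between classes fell. In Control_IMQ over Control_Untreated 1 of 6 was lower in suprabasal cells (4.03% of all genes), Krt2 with a ratio of 0.17, and Krt14 was higher with a ratio of 2.35.

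Known regulators of these keratins were also read from a list. Of 24 measured in suprabasal cells, 7 were higher and 4 lower in Ovol1_null_IMQ over Ovol1_null_Untreated, where 9.45% of all genes were higher and 18.6% lower, so the lower ones were near the share of all genes. The AP-1 gene Fosl1 was highest (9.49 against 0.50 CPM, ratio 19.1) and the dioxin receptor gene Ahr lowest (12.9 against 61.9 CPM, 4.78-fold lower). In Ovol1_null_IMQ over Control_IMQ 7 were higher and 3 lower (8.78% and 13.7% of all genes), from Sox9 (16.5 against 2.98 CPM) to Ahr (12.9 against 45.3 CPM). In basal cells of that comparison 2 were higher and 2 lower, no more than the 11.7% and 13.7% of all genes. Of 15 measured ligand and receptor genes, 4 were higher and 2 lower in its suprabasal cells, where 8.78% of all genes were higher and 13.7% lower, with the EGF receptor ligand Areg highest (22.0 against 1.25 CPM). Hbegf, another such ligand, had 69.9 CPM in suprabasal cells of Ovol1_null_IMQ against 3.65 CPM in Ovol1_null_Untreated. Of 10 keratin partner and junction genes, 1 was higher in suprabasal and basal cells of Ovol1_null_IMQ over Control_IMQ, near the 8.78% and 11.7% of all genes. It was Sfn (14-3-3 sigma, a known Krt17 partner), at 4401 against 2010.4 CPM in suprabasal cells.

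Cycling and dissociation genes differed in some of the comparisons in which the keratins did. Of 12 cycling genes, 8 were higher and none lower in basal cells of Ovol1_null_IMQ over Control_IMQ, where 11.7% of all genes were higher. In Control_IMQ over Control_Untreated 8 were lower and none higher, where 7.3% of all genes were lower. Against Ovol1_null_Untreated 1 was higher in basal cells of Ovol1_null_IMQ, near the 9% of all genes. In suprabasal cells of Ovol1_null_IMQ 4 were higher over Ovol1_null_Untreated (9.45% of all genes) and 6 over Control_IMQ (8.78%), with none lower. None of 7 measured passed 2-fold in suprabasal cells of Control_IMQ over Control_Untreated. The 12 summed to 206 CPM in suprabasal cells of Ovol1_null_IMQ, against 198 to 226 CPM in the other libraries. Of 12 dissociation and immediate early genes, 8 were higher in suprabasal and 4 in basal cells of Ovol1_null_IMQ over Control_IMQ and none lower, where 8.78% and 11.7% of all genes were higher. Over Ovol1_null_Untreated 3 were higher in suprabasal cells (9.45% of all genes) and 0 in basal cells (9%). In basal cells of Control_IMQ over Control_Untreated 3 were lower and none higher, where 7.3% of all genes were lower. The 8 fibroblast markers summed to 674 to 2309 CPM in basal and 852 to 2311 CPM in suprabasal cells, lowest in Ovol1_null_IMQ in both. The part of these genes in the keratin ratios was not tested.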

How the data were processed

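Per the labels, cells had been captured in droplets with 3′ chemistry. The authors deposited raw UMI counts for 23455 barcodes in 1 aggregated table, made with Cell Ranger 2.1.0 and build mm10 per the submitters' processing notes. The sources used here do not say whether aggregation thinned reads to a common depth. Each barcode suffix names its library.

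Cells needed at least 200 genes and no more than 10% of UMIs from mitochondrial genes. Scanpy 1.11.5 (its Scrublet) marked doublets in each library at 1 common threshold, because the automatic threshold failed in 1 library, and 71 to 120 were left out. Cells were clustered over all libraries (2000 variable genes without the 4 keratins, 30 components, 15 neighbours, Leiden resolution 1, no batch correction) and named by marker lists, with at least 3 markers. Cells of unnamed clusters that came almost wholly from 1 library took the name from a clustering of that library, a choice made after seeing the data. UMIs were summed per class and library as CPM, with exact Poisson, Clopper-Pearson and conditional binomial intervals. Log2 ratios were taken with 0.5 UMI added to each count. Co-detection is given as shares of thinned cells in place of a planned ratio to an expected number. The 2-fold rule and the ratio intervals were tried on simulated Poisson counts of basal and suprabasal cells. Clustering, class naming, thinning, correlation and variation between cells were not simulated. Genes other than the 4 were named by rule: the most alike, and the highest and lowest of each list. Others, such as Sprr1b among the wound epidermis genes and the genes set beside cells with a member, were chosen after their values were seen. The members and all lists were chosen with earlier results of these data known. Sequences come from GENCODE M21 on GRCm38.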

Additional observations from a re-analysis of the deposited data

Results flagged for a closer look

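In 7 cases, among the 5 keratinocyte classes and all keratinocytes together, a keratin measured in both comparisons had a ratio with its whole counting interval on one side of 1 in one pair of libraries and on the other side in the matching pair. None of these differences was tested, since each group is 1 library, and the values are ratios of 2 ratios. Krt17 in the Sostdc1 cluster had an imiquimod ratio of 4.61 in the libraries labelled null and 0.769 in control, 5.99 times as large. Krt16 in upper hair follicle cells had a labelled null to control ratio of 3.79 under imiquimod and 0.101 untreated, 37.5 times as large. Krt17 in upper hair follicle cells had 1.22 under imiquimod and 0.861 untreated, a quotient of 1.41. Krt17 in outer bulge cells had 0.752 under imiquimod and 1.13 untreated, a quotient of 0.665. Over all keratinocytes together, Krt17 had an imiquimod ratio of 1.81 in the libraries labelled null and 0.643 in control, and a labelled null to control ratio of 1.96 under imiquimod and 0.696 untreated, a quotient of 2.81 both ways. Krt16 over all keratinocytes had 19.4 under imiquimod and 0.369 untreated, a quotient of 52.5. Values over all keratinocytes also move with the mix of classes, which differed between libraries.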

How the results depend on the processing

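In basal and suprabasal cells, all 4 keratins were counted as higher in Ovol1_null_IMQ over Ovol1_null_Untreated and over Control_IMQ under every alternative run for the counts: TMM scaling, clustering at resolution 2, clustering each library alone, keratins left among the clustering genes, a stricter cell filter, doublets kept, cells of 3100 to 10000 UMIs, the top 1% of cells left out, no minimum of UMIs, 1.5-fold, and fibroblast CPM subtracted (the last chosen after seeing the data). Between other libraries the calls of Krt6a, Krt6b and basal Krt16 in these cells rested on few UMIs. Suprabasal Krt17 had 1253 UMIs in Control_IMQ and 827 in Ovol1_null_Untreated, against 122 in Control_Untreated. Its calls held under the 9 alternatives run for ratios. In Control_IMQ over Control_Untreated the basal count of 2 became 1 with doublets kept, and the suprabasal count of 4 became 2 without the top 1% of cells. Krt17 joined the basal count at 1.5-fold, with a ratio of 1.58, and under 3 of the 9 alternatives run for ratios. In Ovol1_null_Untreated over Control_Untreated the basal count of 1 became 2 under the stricter filter and at 1.5-fold, and 0 with doublets kept or without the top 1%, and the suprabasal count of 1 became 2 with no minimum of UMIs and with doublets kept. The log2 ratio of basal Krt16 between the untreated libraries went to -1.58 with doublets kept, against 2.42. The cause was not tested. Keeping doublets redrew the classes, with 1439 basal cells in Control_IMQ against 955. In the follicle classes, clustering each library alone moved ratios by more than 1.5 times and changed calls, as given beside those ratios. For outer bulge cells of Control_Untreated that clustering also took in a cluster led by Gpx3, a leading gene of a joint fibroblast cluster. Of 80 shares of cells, 35 moved beyond their interval when thinned to 2000 UMIs. No paired analysis was possible because each group is 1 library with no replicates.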
